A study of Mus musculus with 6 samples.

Results

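Wnt ligands and the proteins that process, release, bind or block them were followed in purified endothelial cells of the mouse cerebellum with and without the receptor Frizzled4. A gene belonged to this set if a probe set of the array was assigned to its symbol alone and the symbol was that of a Wnt, an Sfrp (1 to 5), a Dkk (1 to 4), Dkkl1, Frzb, Wif1, a Kremen, Porcn, Wls or Sostdc1. The rule found 34 genes, read by 61 probe sets, of 18193 genes and 45037 probe sets tested. The rule itself used no measured value, except that each gene was read from its brightest probe set over the 6 arrays. It was set with earlier results of these data known. Kremen2, which the rule also names, had no probe set assigned to it alone and is not analysed here.

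Cells were captured from the cerebellum at postnatal day 16 with magnetic beads that carry an antibody against PECAM, an endothelial surface protein. One group came from Fz4-/- mice, which lack Frizzled4 (gene Fzd4), and the other from wild type mice. Both groups had a C57Bl6/129 mixed background and held both sexes. Each genotype had 3 preparations, 1 Affymetrix 3' array each. The labels do not say whether a preparation was 1 animal or a pool, so the spread between arrays may be partly technical. The labels do not say how the Fz4 allele was made. All values are log2 expression, and differences are Fz4-null minus wild type, so a difference of -1 is a halving.

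Wnts are secreted, lipid-modified ligands of the Frizzled receptors. Porcupine (Porcn) attaches the lipid, and Wntless (Wls) carries the ligand to the cell surface. In the canonical branch a Wnt joins Frizzled to an Lrp co-receptor and beta-catenin then activates genes with Tcf/Lef factors. Secreted antagonists either bind the ligand or the receptor (Sfrp, Frzb, Wif1) or block the co-receptor (Dkk with Kremen, Sostdc1). In the brain's vessels Frizzled4 is the receptor of Norrin, a secreted protein that is not a Wnt, while Wnt7a and Wnt7b from neural cells act on the same endothelium. A bulk array cannot tell fewer cells of a type from less RNA per cell.

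The labels were checked against the targeted gene and endothelial markers. Fzd4 read 10.80, 10.20 and 10.88 in wild-type replicates 1 to 3 and 3.04, 4.03 and 4.0 in the null replicates. It fell by 6.94 on the log2 scale (SE 0.34, n = 3 per group, limma adjusted p = 0.00965), and with the replicate number as a block the adjusted p was 0.127. Array medians lay between 5.52 and 5.58 and lower quartiles between 3.46 and 3.64, so the null level is about that of a dim probe set. All 10 endothelial markers read above the array median on every array, with summed linear levels of 37251 to 40486 in wild type and 39967 to 42490 in the null arrays. Null replicate 1 stood apart: relative to the wild-type mean, the 10 fibroblast markers averaged -2.63 there, the 10 microglial markers -2.85, the 10 astrocyte markers -1.80 and the 10 pericyte and smooth muscle markers -1.31. Wild-type replicate 3 stood apart in choroid plexus markers, where all 8 read higher than on any other array.

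No member of the set passed the test between genotypes. Of 34 genes, 0 had a limma adjusted p under 0.05 (background 0.022% of all genes, 4 in number, and 0% with the replicate block), and the lowest was 0.988. At an unadjusted p under 0.05, limma called 1 member, Wnt16, where 4.6% of all genes were called. An unmoderated statistic called 2 (Wls and Wnt16), where it called 4.9% of all genes. The median difference of the members was -0.17, against 0.0077 for all genes, and 25 of 34 members lay lower in the null mean against 48.7% of all genes. Dim genes leaned lower on these arrays as a whole: among genes at or below the array median, 62.9% were lower in the null mean with a median of -0.08, where the 24 dim members had 18 lower and a median of -0.17. Genes above the array median leaned the other way, with 39.1% lower and a median of 0.054. The 10 members above it had 7 lower and a median of -0.17. Only 2 members differed by 2-fold or more, Sostdc1 and Dkk2, both lower, with 2.11% of all genes past that size.

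**Figure D1:**
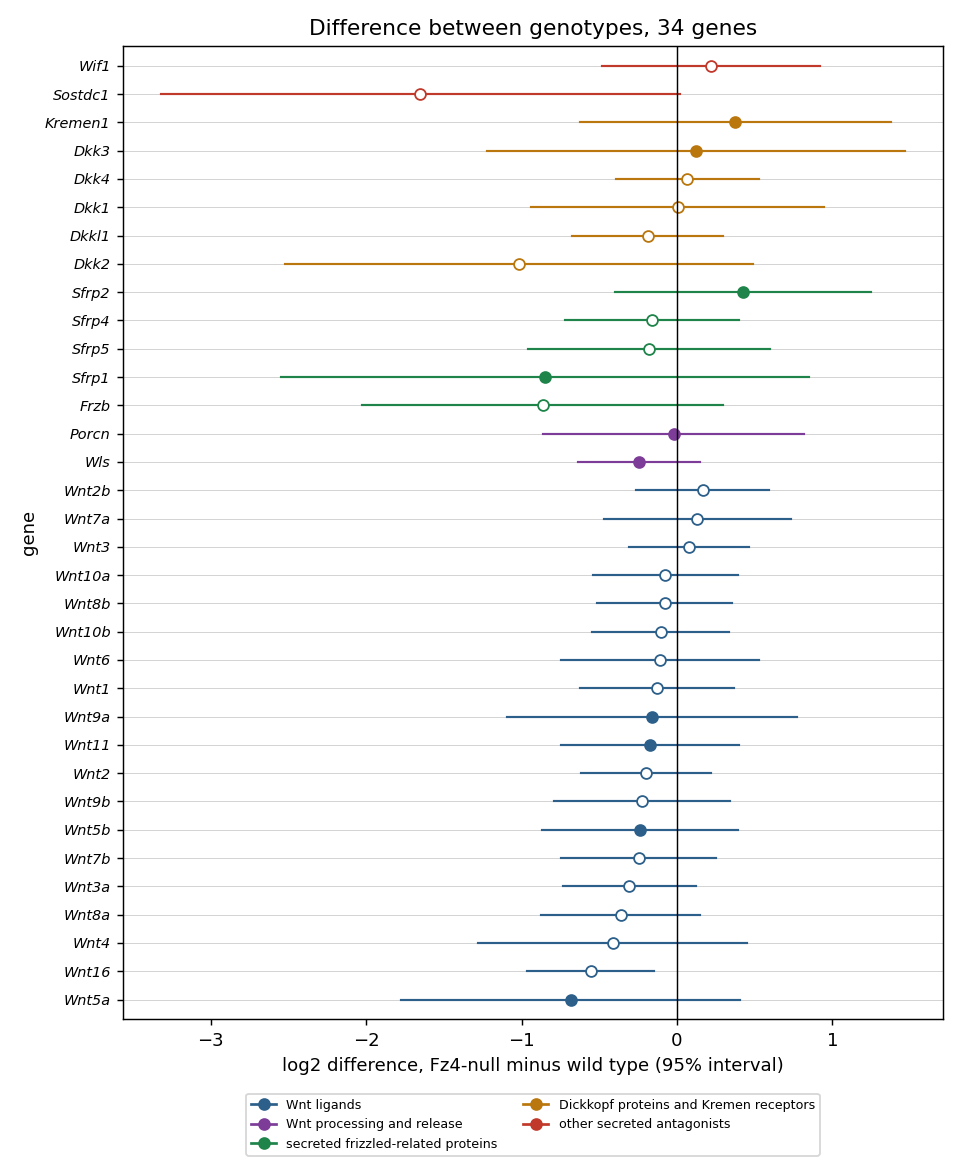
Difference between genotypes for each of the 34 genes (x axis, log2, Fz4-null minus wild type), grouped by role and coloured accordingly, with points for the limma estimate and lines for its 95% interval. Filled points are genes with a mean signal above the array median; all intervals except that of Wnt16 include 0, and Sostdc1 lies farthest from it at -1.65.

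Most of the set gave little signal in these cells. The mean over the 6 arrays exceeded the array median for 10 of 34 members (29.4%, against 59.7% of all genes), and for 9 members (26.5%, against 18.1%) it lay under the lowest of the lower quartiles. The 10 were the ligands Wnt5a, Wnt5b, Wnt11 and Wnt9a, the release proteins Wls and Porcn, the antagonists Sfrp1, Sfrp2 and Dkk3, and the Dickkopf receptor Kremen1. Wnt9a at 6.01 was the member just inside that limit of 5.57, and Frzb at 5.48 the one just outside. Probe sets differ in brightness, so these signals do not rank the genes by abundance, and the deposited table holds no detection calls.

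**Figure D2:**
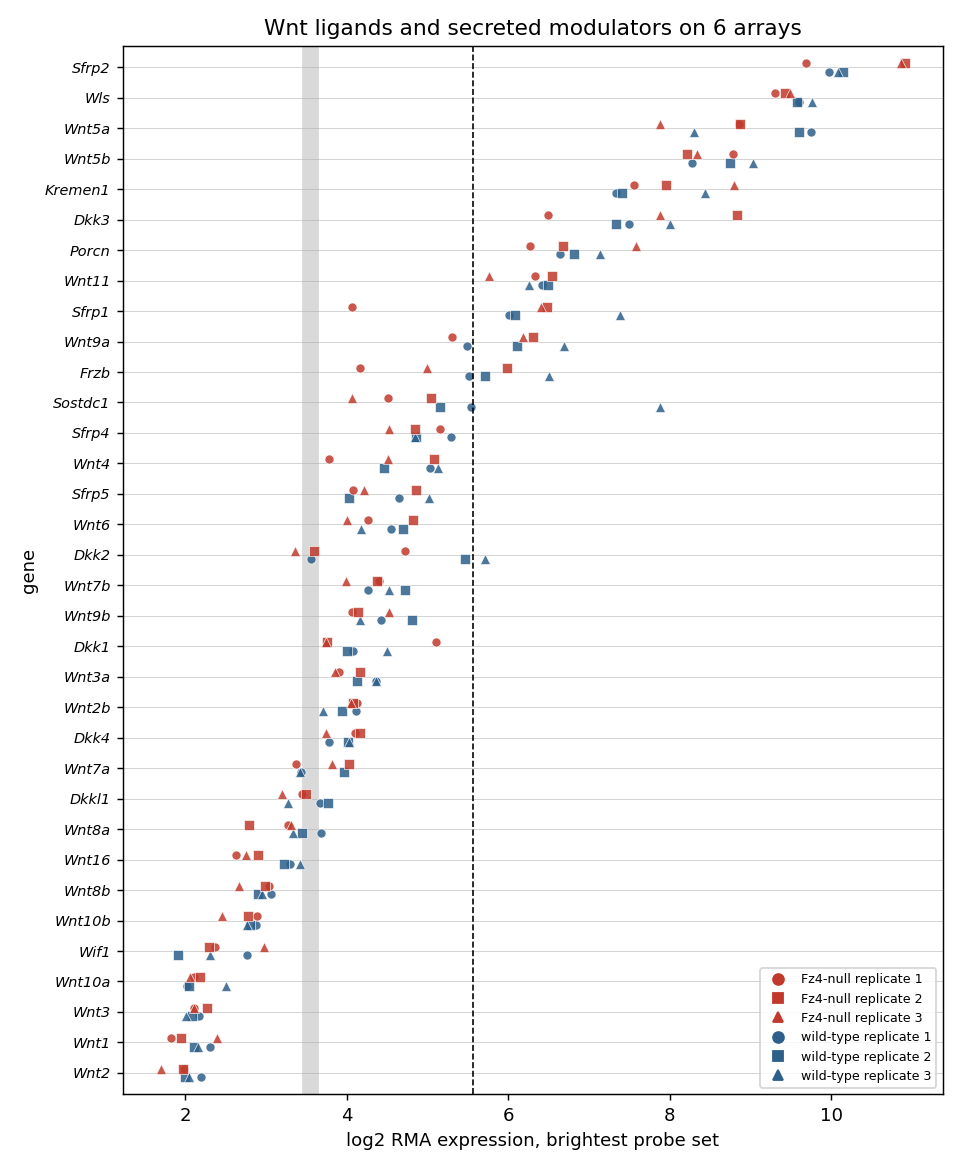
Log2 expression (x axis) of the 34 genes on each of the 6 arrays, sorted by mean, with colour for genotype and symbol shape for replicate number. The dashed line marks the array median of 5.57 and the grey band the lower quartiles of 3.46 to 3.64; 10 genes have means to the right of the line, and the genotypes overlap in all but 5 genes.

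Among the 19 Wnt ligands, 16 lay lower in the null mean, 3 higher, and 0 passed. Wnt5a, a ligand known mainly for beta-catenin-independent signalling, had the widest difference of the 4 ligands above the array median. Its brightest probe set read 9.75, 9.61 and 8.31 in wild-type replicates 1 to 3 and 8.86, 8.87 and 7.88 in the null replicates. The arrays numbered 3 were the lowest of both genotypes, and the groups overlapped because wild-type replicate 3 lay under 2 of the null arrays. The means were 9.22 ± 0.80 in wild type and 8.54 ± 0.57 in null (SD, n = 3), a difference of -0.68 (SE 0.46, 95% interval -1.78 to 0.41). Within each replicate number the null array was the lower one, by -0.89, -0.74 and -0.42. With the replicate number as a block, Wnt5a had a limma unadjusted p of 0.0098 and an adjusted p of 0.489, in a fit where 8.89% of all genes had an unadjusted p under 0.05. Wnt5a was 1 of 10 members with the same sign in every numbered pair (10 of 34), against 33.3% of all genes.

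The other Wnt5a probe sets pointed the same way. The second read 9.32 ± 1.23 in wild type and 7.99 ± 1.38 in null (SD, n = 3), a difference of -1.33 (SE 0.83). The third differed by -0.76 (SE 0.49), although in replicate number 2 it read 0.30 higher in the null array. The fourth lay near background, at a mean of 2.57. Wnt5a also depended on the arrays used: leaving out wild-type replicate 3 gave -1.14, and leaving out null replicate 3 gave -0.36.

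**Figure D3:**
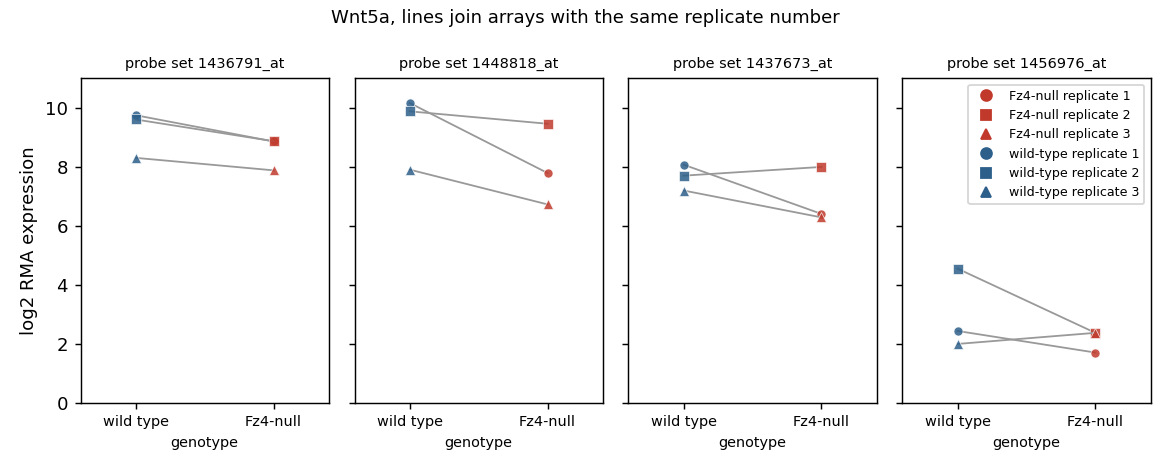
Log2 expression (y axis) of the 4 Wnt5a probe sets in wild-type and Fz4-null arrays, with lines joining arrays of the same replicate number. The first and second probe sets go down along each of the 3 lines, the third goes up along 1 of them, and the fourth reads mostly below 3.

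Wnt5b, the closest relative of Wnt5a, read 8.27, 8.75 and 9.03 in wild-type replicates 1 to 3 and 8.79, 8.21 and 8.34 in the null replicates. The groups overlapped, with a difference of -0.24 (SE 0.27, 95% interval -0.87 to 0.39), and its dimmer probe set differed by -0.08. Both Wnt5b probe sets are of kinds that can read several transcripts.

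Wnt11, another ligand of beta-catenin-independent signalling, read 6.42, 6.49 and 6.26 in wild type and 6.33, 6.54 and 5.77 in the null arrays. Null replicate 3 was the low one, and without it the difference moved from -0.18 (SE 0.24) to 0.047, while dropping null replicate 2 gave -0.34. Wnt9a read 5.49, 6.10 and 6.69 in wild type and 5.30, 6.31 and 6.18 in null, a difference of -0.16 (SE 0.39) that was smaller than the spread within either group. It turned to 0.15 without null replicate 1 and to 0.14 without wild-type replicate 3, and reached -0.46 when wild-type replicate 1 was dropped. The dimmer Wnt9a probe set, at a mean of 3.79, differed by -0.21 (SE 0.17), and its groups did not overlap.

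Wnt7a and Wnt7b, the ligands that reach brain endothelium from neural cells, gave low signals in these preparations. Wnt7a averaged 3.61 ± 0.31 in wild type and 3.74 ± 0.33 in null (SD, n = 3), close to the lower quartiles, a difference of 0.13 (SE 0.25). Its second-brightest probe set, at a mean of 3.45, went the other way by -0.32 (SE 0.20), and there the groups did not overlap. The dimmest Wnt7a probe set differed by -0.06. Wnt7b averaged 4.50 ± 0.23 and 4.25 ± 0.22, a difference of -0.25 (SE 0.21), and its dimmer probe set went the other way, at 0.10. Of the other ligands, Wnt1, Wnt2, Wnt3, Wnt8b, Wnt10a and Wnt10b had means between 1.98 and 2.93, and Wnt3a read 4.13. Wnt4, Wnt6, Wnt9b and Wnt2b had means between 4.0 and 4.66, and their differences ran from -0.41 to 0.17. The dimmer probe sets of Wnt4 and Wnt6 went the other way, at 0.14 and 0.18 against -0.41 and -0.11. The dimmer one of Wnt9b kept its direction, at -0.28.

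Wnt16, a ligand best known from bone and joint tissue, had the lowest p of the set. It read 3.30, 3.22 and 3.42 in wild-type replicates 1 to 3 and 2.63, 2.90 and 2.75 in the null replicates, so the groups did not overlap. The difference was -0.56 (SE 0.17, 95% interval -0.96 to -0.15), with a limma unadjusted p of 0.0147 and an adjusted p of 0.988. All 6 values lay under the lower quartile of their own array, so it is not shown that either group was above background. Wnt8a, another Wnt ligand, read 3.68, 3.44 and 3.33 in wild type and 3.28, 2.79 and 3.30 in null. Its groups did not overlap, by a margin of hundredths of a log2 unit, and the difference was -0.36 (SE 0.22). Wnt2, with means of 2.08 in wild type and 1.88 in null, did not overlap either. In all, 5 members did not overlap between genotypes, each lower in null (Wnt16, Wnt8a, Wnt2, Wls and Sostdc1), and 0 were higher. Over all genes 4.95% did not overlap in that direction and 4.59% in the other, and among genes at or below the array median 7.88%, where 4 of these 5 members belong.

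Wls, the carrier that every lipid-modified Wnt needs to leave the cell, gave one of the tightest measurements of the set. Its brightest probe set read 9.61, 9.58 and 9.77 in wild type and 9.30, 9.43 and 9.49 in null. Each null value lay below each wild-type value, by little: the means were 9.65 ± 0.10 and 9.41 ± 0.095 (SD, n = 3), and the difference was -0.24 (SE 0.17, 95% interval -0.64 to 0.15). The second probe set, at a similar signal, went the other way by 0.13 (SE 0.24) and its groups overlapped. The third differed by -0.21 (SE 0.18) with overlapping groups. A change of 2-fold lay outside the 95% intervals of all 3 bright Wls probe sets. Porcn read 6.64, 6.81 and 7.14 in wild type and 6.27, 6.67 and 7.58 in null, a difference of -0.02 (SE 0.35, 95% interval -0.86 to 0.82). The null arrays held both its lowest and its highest value.

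Secreted frizzled-related proteins carry a Frizzled-like domain that binds Wnts. Of the 5 members, 4 lay lower in the null mean and 1 higher, with 0 past the test. Sfrp2, the brightest probe set of the whole list, read 9.97, 10.15 and 10.08 in wild-type replicates 1 to 3 and 9.69, 10.92 and 10.86 in the null replicates. Null replicates 2 and 3 were above every wild-type array and null replicate 1 was below every one. The difference was 0.42 (SE 0.35, 95% interval -0.40 to 1.25). Without null replicate 1 it was 0.82, while leaving out null replicate 2 gave 0.21. In the fit without null replicate 1, Sfrp2 had a limma unadjusted p of 0.00567, where 4.04% of all genes had one under 0.05. In that fit 0 members had an adjusted p under 0.05.

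Sfrp1, known for expression in glia and mesenchyme, read 6.01, 6.09 and 7.39 in wild type and 4.06, 6.48 and 6.40 in null. Null replicate 1 was again the low array and wild-type replicate 3 the high one. The difference of -0.85 (SE 0.71, 95% interval -2.55 to 0.85) was -0.057 without null replicate 1, while dropping null replicate 2 gave -1.26. With both of the arrays that stand apart left out it was 0.39. On its brightest probe set Frzb (also called Sfrp3) likewise had null replicate 1 lowest and wild-type replicate 3 highest. It read 5.51, 5.71 and 6.50 in wild type and 4.17, 5.98 and 4.99 in null, a difference of -0.86 (SE 0.49). The second-brightest probe set of Sfrp1 differed by -0.44 (SE 0.45), with null replicate 1 lowest and wild-type replicate 1 highest. That of Frzb differed by -0.41 (SE 0.30), with null replicate 3 lowest and wild-type replicate 2 highest. Sfrp4 and Sfrp5 differed by -0.16 and -0.18 at means of 4.92 and 4.47.

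Null replicate 1 was the lowest array for 6 of the 10 brighter members (Sfrp2, Wls, Dkk3, Porcn, Sfrp1 and Wnt9a), where it was the lowest for 13.9% of all genes above the array median. Over all 34 members null replicate 3 was lowest most often, for 14 (41.2%, against 20.0% of all genes). Null replicate 1 was lowest for 12 of them (35.3%, against 16.1%). Markers of other cell types were low on null replicate 1. All 10 fibroblast markers read lower there than in every wild-type array, with a summed linear level of 2122 on that array, 6444 and 13759 on the other null arrays and 10735 to 13382 in wild type. All 10 pericyte and smooth muscle markers and 9 of 10 astrocyte markers did so too, at sums of 13858 and 5964 on that array against 28956 to 32866 and 8674 to 9731 in wild type. No fibroblast, pericyte or astrocyte marker read under the lower quartile on all arrays. The part of these cells in the Sfrp and Dkk3 values was not tested.

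**Figure D4:**
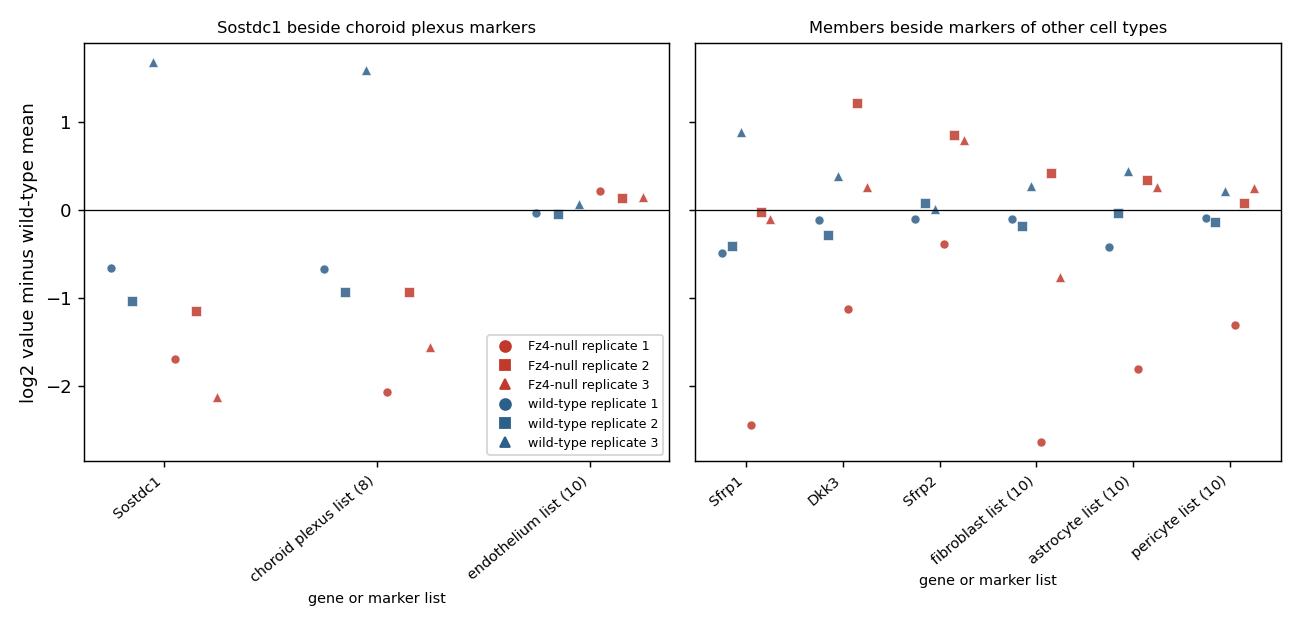
Log2 value on each array minus the wild-type mean (y axis) for Sostdc1 beside the means of the choroid plexus and endothelium marker lists (left), and for Sfrp1, Dkk3 and Sfrp2 beside the fibroblast, astrocyte and pericyte lists (right), with the number of markers in brackets. Wild-type replicate 3 is highest for Sostdc1 and the choroid plexus list, and null replicate 1 is lowest for the 3 genes and the 3 lists on the right.

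Dickkopf proteins bind the Lrp co-receptors, and Kremen1 helps to remove the bound co-receptor from the surface. Kremen1 read 7.34, 7.41 and 8.44 in wild-type replicates 1 to 3 and 7.56, 7.96 and 8.80 in the null replicates. The null array was higher in each replicate number, by 0.22, 0.55 and 0.36, yet the groups overlapped, because the arrays numbered 3 were the highest of both genotypes. The difference was 0.38 (SE 0.42, 95% interval -0.63 to 1.38), and it ran from 0.027 without null replicate 3 to 0.73 without wild-type replicate 3, and was 1.01 (limma adjusted p = 0.607) without null replicate 1 and wild-type replicate 3 together. Its dimmer probe sets, at means of 3.78 and 3.02, differed by -0.13 and -0.14.

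Dkk3, a divergent family member that is not a typical Wnt antagonist, spread widely among the null arrays. It read 7.50, 7.33 and 8.0 in wild type and 6.49, 8.84 and 7.88 in null, so the null arrays held the lowest and the highest value. The difference was 0.12 (SE 0.57, 95% interval -1.22 to 1.47), 0.75 without null replicate 1 and -0.43 without null replicate 2. The second Dkk3 probe set gave 0.15 (SE 0.51). Of the canonical antagonists, Dkk2 read 3.55, 5.46 and 5.71 in wild type and 4.72, 3.59 and 3.36 in null, with overlapping groups and a difference of -1.02 (SE 0.63). Dkk1, a Wnt feedback antagonist, differed by 0.0061 (SE 0.40), with null replicate 1 at 5.10 and every other array between 3.75 and 4.50. Dkk4 and Dkkl1 differed by 0.07 and -0.19 at means of 3.97 and 3.47.

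Of the other antagonists, Sostdc1 (also called Wise), a secreted inhibitor of both Wnt and BMP signalling, had the widest difference of the set. It read 5.54, 5.16 and 7.88 in wild-type replicates 1 to 3 and 4.51, 5.04 and 4.07 in the null replicates. The groups did not overlap, although null replicate 2 lay only 0.12 under wild-type replicate 2, and wild-type replicate 3 stood far above the other arrays. The means were 6.19 ± 1.47 and 4.54 ± 0.49 (SD, n = 3), a difference of -1.65 (SE 0.70, 95% interval -3.32 to 0.02), and its second probe set gave -1.15 (SE 0.57), also without overlap. Without wild-type replicate 3 the difference was -0.81, with a limma adjusted p of 0.636, and dropping wild-type replicate 2 gave -2.17.

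Choroid plexus markers were likewise highest in wild-type replicate 3. All 8 measured choroid plexus markers were lower in the null mean, with a median difference of -1.54 and 4 of 8 not overlapping, against 4.95% of all genes in that direction. Their summed linear level was 6271, 3741 and 13159 in wild-type replicates 1 to 3 and 816, 1772 and 1576 in the null replicates, and 0 of the 8 read under the lower quartile on all arrays. The part of choroid plexus cells in the Sostdc1 value was not tested. Wif1, which binds Wnts directly, averaged 2.33 ± 0.43 and 2.55 ± 0.37 (SD, n = 3), below the lower quartiles in both genotypes.

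The promoters of the members were searched for the core letters bound by Tcf/Lef factors, since those factors act at the end of the canonical branch. The letters were CTTTGAA and CTTTGAT, on both strands, in windows from 250 bases before to 50 bases after an annotated transcript start (RefSeq, build GRCm38.p6). Windows were at hand for 23 of the 34 genes, 26 in all, and 3 windows held a match (11.5%), against 8.65% of all 32851 windows of that length. The matched stretches, 5′ to 3′ on the gene's strand with the match in capitals, are shown because they are all the matches in the set.
Dkk1: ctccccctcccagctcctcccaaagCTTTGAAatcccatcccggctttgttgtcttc
Wnt11: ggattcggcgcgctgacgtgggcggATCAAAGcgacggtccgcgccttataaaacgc
Wnt5b: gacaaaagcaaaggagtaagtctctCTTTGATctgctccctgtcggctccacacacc
They lie at chr19:30549582-30549638 (minus strand), chr7:98835036-98835092 (plus strand, 1 of 2 windows of Wnt11) and chr6:119449426-119449482 (minus strand, 1 of 3 windows of Wnt5b). The Wnt11 match is CTTTGAT on the opposite strand. The 3 matches begin 117, 51 and 71 bases before the transcript start their window was set on. That start lies inside the gene for Wnt11 and Wnt5b. The expression differences of these genes were 0.0061, -0.18 and -0.24, none past the test. A match is a run of letters and not a shown binding site.

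Other genes of the pathway, from lists drawn up by function, gave 1 call, the targeted Fzd4. Of 19 Frizzled receptors and co-receptors, 1 passed and 6 had an unadjusted limma p under 0.05, where 4.6% of all genes did. Of these 6, 2 were higher and 4 lower, the lower ones including Fzd4 itself and Fzd1, a receptor, at -0.61 (SE 0.20). Of 21 other secreted or surface regulators, 0 passed and 5 had an unadjusted limma p under 0.05, 3 higher and 2 lower, against the same 4.6% of all genes. The lowest p among them belonged to Cthrc1, a secreted protein that can bind Wnts and Frizzleds, which read 9.03, 8.74 and 9.12 in wild type and 10.27, 10.09 and 9.86 in null. Its groups did not overlap, with a difference of 1.11 (SE 0.20, limma adjusted p = 0.514). Lgr5, an R-spondin receptor, differed by 1.05 (SE 0.23) from a dim wild-type level of 4.03. Norrin itself (Ndp) read 3.48 ± 0.24 in wild type and 2.88 ± 0.11 in null (SD, n = 3), near or under the lower quartiles. Its difference was -0.60 (SE 0.19, limma unadjusted p = 0.0179, adjusted p = 0.999989) without overlap, so it is 1 of the 2 lower genes counted above.

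Inside the cell, 0 of 17 measured transducers had an unadjusted limma p under 0.05, and their median difference was 0.02. The lowest p values there belonged to Pygo1 (-0.35) and Axin1 (0.27), a scaffold that helps to degrade beta-catenin. Of 16 measured target genes, 0 passed and 4 had an unadjusted limma p under 0.05, 1 higher and 3 lower, with a median of -0.34, where over all genes 4.6% did and the median was 0.0077. Notum, an enzyme that removes the lipid from Wnts, differed by -1.78 (SE 0.44, limma adjusted p = 0.811). Lgr5, Notum, Apcdd1, Znrf3 and Rnf43 stand both here and among the other secreted or surface regulators. Lgr5 and Notum are therefore counted at the unadjusted limit in both lists.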

How the data were processed

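The authors deposited log2 expression per probe set from RMA, per the submitters' processing notes; no label names the implementation or its version. RMA corrects background and normalizes between arrays, which shrinks the differences of dim probe sets. Of 45101 probe sets, 64 controls were left out, and genes were named from the platform annotation where a probe set had 1 symbol (34945 probe sets; 932 had several and 9160 none). All 34 members matched RefSeq by identifier.

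Both genotypes entered a limma 3.58.1 fit (R 4.3.3) of all 6 arrays over 45037 probe sets, without covariates, two-sided, with Benjamini-Hochberg adjustment at 0.05. With 3 arrays a group, the smallest p of an exact permutation test is 0.1, so none was run. Errors are SDs or moderated SEs, and precision is limited by the few arrays. At most 0.351% of probe sets had identical values in any 2 arrays.

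The labels number replicates 1 to 3 in both genotypes without saying what a number shares. Deviations from the group means correlated at 0.244, 0.303 and 0.574 for equal numbers, all above 0.1, and at -0.463 to 0.262 for unequal ones. The limit of 0.1 does not mark out pairs, because null replicate 2 and wild-type replicate 1 also correlated at 0.262. The main fit therefore left the numbers out, and a limma fit with the replicate block was an alternative.

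Members printed by array were those above the array median, the one with the lowest p, and up to 4 per direction among those whose groups did not overlap; Frzb, Dkk1, Dkk2, Wnt2, Wnt7a and Wnt7b were added after their values were seen. Up to 2 genes with the lowest p were named per pathway list, and Ndp was added. The members and lists were chosen with earlier results of these data known. Alternatives covered normalization, dim probe sets, the variance model, the choice of probe set, the block and arrays left out. The fit was tested on simulated data, and figures were drawn with matplotlib.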

Additional observations from a re-analysis of the deposited data

How the results depend on the processing

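Under 15 alternative settings and 1 more chosen after seeing the data (without null replicate 1 and wild-type replicate 3), 0 members passed an adjusted p of 0.05, and the members' median difference stayed below 0, from -0.22 to -0.08. The count at an unadjusted p under 0.05, 1 with all arrays, was 2 under median centring, a robust variance trend and an unmoderated statistic. It was also 2 with the replicate block and without probe sets that can read several transcripts. Among the 10 members above the median level it was 0. It was 1 to 3 with 1 array left out, and 3 with that last setting. The share of all genes at this limit also moved, from 4.6% with all arrays to 8.89% with the replicate block. It was 3.06% to 8.34% with 1 array left out and 8.62% with that last setting. The 3 members of that last setting thus lay near the share of all genes. Genes past the adjusted threshold numbered 4, and 11 when the probe sets of a gene were averaged, 0 with the replicate block, the unmoderated statistic, without both arrays numbered 3 and with that last setting, and 0 to 2 with 1 array left out. Fzd4 kept its direction but lost its call with the block and the unmoderated statistic (-6.94), without both arrays numbered 3 (-6.96), and with that last setting (-6.49). With 1 array left out it ran from -7.15 to -6.61, where the call was lost on dropping null replicate 2 or 3 or wild-type replicate 1 or 2. Of 13 named members, 8 kept their direction under each of the 15 settings that gave them a value; Sostdc1, Wnt16 and Wnt8a had none among probe sets above the median level, and Wnt5b none without probe sets that can read several transcripts. Wls turned to 0.13 without probe sets that can read several transcripts, and Wnt9a to 0.011 without both arrays numbered 3. With that last setting Porcn turned to 0.40, Sfrp1 to 0.39 and Wnt9a to 0.45. With 1 array left out, Porcn ran from -0.39 to 0.27, Dkk3 from -0.43 to 0.75, Wnt11 from -0.34 to 0.047 and Wnt9a from -0.46 to 0.15. The causes were not tested. The replicate block changed no member's call at the adjusted limit, and at the unadjusted limit it added Wnt5a to Wnt16. Signals under the lower quartile limit what can be said of the dim ligands.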
